A study of Homo sapiens with 6 samples.

Results

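This account covers 7 interferon-linked genes in HCT116 cells: PARP9 and its partner DTX3L, the ADP-ribosyltransferases PARP14, PARP12 and PARP10, and the neighbouring paralogs SAMD9 and SAMD9L. They were taken by symbol from the 60675 gene IDs of the deposited table, and all 7 were found. The symbols were chosen by function and by the FPKM difference between K29Q and WT, the same values given here, so these are a description and no test is drawn from them.

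The series compared cells of HCT116, a long-established line from a human colon carcinoma, after stable expression of PHF5A K29Q (K29Q) or of wild-type PHF5A (WT). PHF5A is a small subunit of the SF3B complex, which recognises the intron branch site, and K29Q puts a glutamine, a common stand-in for acetylated lysine, in place of a lysine. Each group had 3 libraries of total RNA. The labels name no interferon or other agent, and they do not say whether a group is 1 clone or several, what became of the endogenous PHF5A, or whether the 3 libraries came from separate cultures. The spread between libraries may therefore be technical.

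ADP-ribosyltransferases move ADP-ribose from NAD+ onto proteins or nucleic acids. PARP10, PARP12 and PARP14 add single units, while PARP9 carries macrodomains that bind ADP-ribose and works in a complex with DTX3L, a ubiquitin ligase of the Deltex type. SAMD9 and SAMD9L are large cytosolic proteins that block translation and restrict poxviruses. Interferons act through receptors and JAK kinases on transcription factors such as IRF9, which bind an interferon-stimulated response element in the promoters of many antiviral genes.

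PARP9 and DTX3L lie head to head, and the promoter of DTX3L is shown first because PARP9 shares part of it. RefSeq promoter windows (GRCh38.p14, 250 bases before a start and 50 from it on) were found for 6 of the 7 genes: PARP9, DTX3L, PARP12, PARP14, SAMD9 and SAMD9L. The second of the PARP9 windows shares 137 bases with the DTX3L window, and these starts lie 38 bases apart. The first PARP9 window shares 0 bases with it, and its start lies 446 bases from the DTX3L start. The DTX3L window (chr3:122564088-122564387, plus strand) is given 5′ to 3′, with a match to a core of the interferon-stimulated response element in capitals. This motif, called the GAAA pair here, is GAAA, any 2 bases and a second GAAA.
DTX3L: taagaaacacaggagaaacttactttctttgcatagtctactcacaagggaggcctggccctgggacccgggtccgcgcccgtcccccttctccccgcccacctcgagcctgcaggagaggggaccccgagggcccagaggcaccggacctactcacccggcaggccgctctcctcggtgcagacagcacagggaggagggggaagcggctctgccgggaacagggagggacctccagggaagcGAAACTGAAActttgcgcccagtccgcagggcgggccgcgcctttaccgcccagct
The same bases are read from PARP9 on the other strand (chr3:122564307-122564366, minus strand), where the capitals are the reverse complement of the motif.
PARP9: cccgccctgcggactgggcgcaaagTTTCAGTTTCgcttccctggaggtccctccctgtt

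The matches in PARP14 (chr3:122680785-122680844, plus strand), PARP12 (chr7:140062927-140062986, minus strand) and SAMD9 (chr7:93118081-93118140, minus strand) are shown with 25 bases on each side, to set them beside the shared one. In PARP12 the capitals again are the reverse complement. SAMD9L (chr7:93148399-93148456, minus strand) held no GAAA pair, and its capitals mark the shorter AANNGAAA. This is also the end of the longer motif, and so occurs in the other 5 genes.
PARP14: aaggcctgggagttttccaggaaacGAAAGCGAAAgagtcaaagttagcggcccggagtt
PARP12: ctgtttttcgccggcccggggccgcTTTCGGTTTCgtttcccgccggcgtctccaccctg
SAMD9: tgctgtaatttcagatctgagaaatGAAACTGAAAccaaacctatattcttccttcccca
SAMD9L: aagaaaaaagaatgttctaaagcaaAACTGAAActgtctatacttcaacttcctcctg

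The GAAA pair, searched on both strands, was present in 5 of the 6 genes with a window and in 4.38% of all 27305 genes with one. The first PARP9 window held no GAAA pair, and the match in the second is the same bases as the match of DTX3L. AANNGAAA is the end of the GAAA pair, so its presence in those 5 genes was fixed by the pair. It was also present in SAMD9L, and in 26.7% of all genes with a window. TTCNNNGAA, the letters of a gamma-activated site, was found in PARP14 alone of the 6 and in 9.38% of genes. These are matches of letters and not sites of binding.

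Expression was given as FPKM, fragments scaled by transcript length and library size. FPKM values are not counts; steps in the low values put the depth at 33598942 to 39994919 fragments a library if 1 step was 1 fragment. PHF5A totals were 44.1 ± 2.38 FPKM in K29Q and 33.1 ± 1.06 in WT (SD, n = 3 each), and such totals add any endogenous and introduced forms together. The libraries did not group by genotype throughout: over tested genes the median absolute log2 difference of WT 1 was 0.0846 from K29Q 2 and 0.0887 from K29Q 3, against 0.106 from WT 2 and 0.1525 from WT 3. The widest difference between any 2 libraries was 0.18, between K29Q 3 and WT 3. The column headers carry 2 flow cell names, here A (K29Q 1, K29Q 2 and WT 2) and B (K29Q 3, WT 1 and WT 3). Of 11 colon epithelial markers 6 averaged at least 1 FPKM, and KRT20, CDH17, VIL1, CDX1 and LGALS4 were under 1 in every library. The epithelial markers summed to 1147 to 1201 FPKM in K29Q and 1248 to 1401 in WT. The leukocyte markers summed to 2.93 to 3.53 FPKM in K29Q and 2.97 to 3.65 in WT, with all but CD68 under 1. The fibroblast and endothelial markers summed to 4.93 to 6.31 FPKM in K29Q and 4.84 to 5.76 in WT, with DCN and LUM listed at 0 throughout. Any part of these in the differences described here was not tested.

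All 7 genes were higher in every K29Q library than in any WT library. This held for 8.8% of the 13261 genes tested, and for 5.9% of the 41186 genes above 0 in any library, the wider set that all 7 belong to. The share is printed as background, since the genes were chosen with this contrast known. Tested were the 13261 genes that reached 1 FPKM in 3 or more libraries. PARP9, DTX3L, PARP12, PARP14 and SAMD9 passed this filter and PARP10 and SAMD9L did not. Differences are K29Q minus WT in mean log2(FPKM + 1), a scale that shrinks the change of weakly expressed genes, with the SE of a limma fit over all genes. The SE of PARP10 and SAMD9L come from the same fit without the filter.

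In that fit 0 of the 5 tested members passed an adjusted p of 0.05 (limma, Benjamini-Hochberg over all tested genes), where 0.0528% of the tested genes did, 0.0302% as higher and 0.0226% as lower in K29Q. Nothing is read from this count, since the members were chosen on the same contrast. In a cell line these values cannot tell a change in every cell from a change in some of the cells.

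**Figure D1:**
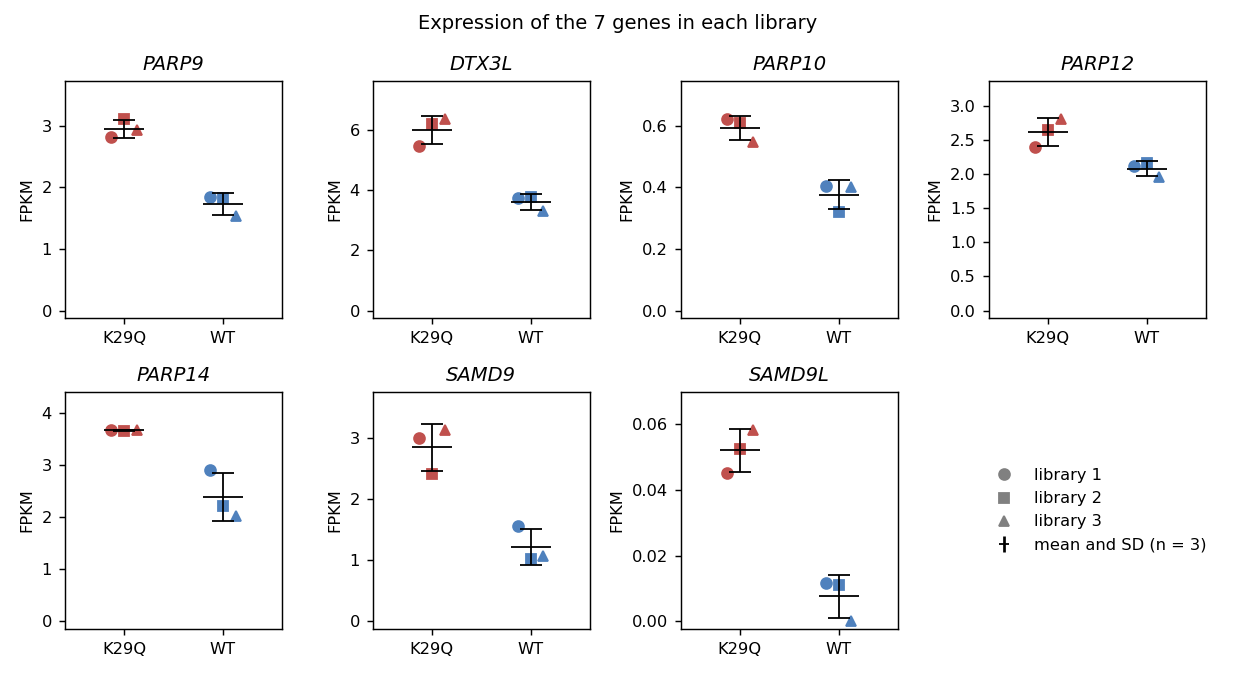
FPKM of each gene in the 3 K29Q and 3 WT libraries (points, shaped by library number), with the mean and SD (n = 3). Each panel has its own FPKM axis. In each panel all K29Q points lie above all WT points, and SAMD9L lies near 0, at 0.0583 FPKM at most.

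PARP9 and DTX3L were both higher in K29Q, by nearly the same ratio. PARP9 (ENSG00000138496, chromosome 3 from 122527924 to 122564577, minus strand, GENCODE 29 on GRCh38) had 2.82, 3.11 and 2.93 FPKM in K29Q 1 to 3, against 1.85, 1.82 and 1.53 FPKM in WT 1 to 3. The lowest K29Q library was 0.966 FPKM above the highest WT library, a gap wider than the range within either group. The means were 2.95 ± 0.147 FPKM in K29Q and 1.73 ± 0.177 in WT (SD, n = 3 each). The ratio of the means was 1.70 and the log2 difference was 0.53 (SE 0.076).

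DTX3L (ENSG00000163840, chromosome 3 from 122564238 to 122575203, plus strand) had 5.47, 6.19 and 6.35 FPKM in K29Q 1 to 3, against 3.74, 3.75 and 3.30 FPKM in WT 1 to 3. It was the most abundant of the 7 in every library. The means were 6.00 ± 0.467 FPKM in K29Q and 3.60 ± 0.260 in WT (SD, n = 3 each). The ratio of the means was 1.67 and the log2 difference was 0.61 (SE 0.079). The gene bodies overlap by 340 bases on opposite strands, and whether the quantification used strand is not given in the sources used here, so fragments there could have gone to either gene.

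FPKM is scaled by length, and the levels of this pair are set against each other on that scale. Fragments from their overlap could still have gone to either gene, which limits the comparison. The FPKM of DTX3L over that of PARP9 was 1.94, 1.99 and 2.17 in K29Q 1 to 3, against 2.02, 2.06 and 2.16 in WT 1 to 3. The ratio overlapped between the groups while both genes were higher in K29Q. By the root mean square difference between log2 profiles centred over the 6 libraries, PARP9 was the fourth closest of 13260 genes to DTX3L (rank 4), and DTX3L ranked 8 among those closest to PARP9. That difference was 0.056, where the median gene was 0.292 from PARP9. PARP14 ranked 24 among those closest to PARP9, and SAMD9 ranked 12935 of 13261 in closeness to SAMD9L, which was barely detected. PARP9 and DTX3L were chosen on these same values, so a small difference between them was largely built in and nothing is read from the ranks.

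**Figure D2:**
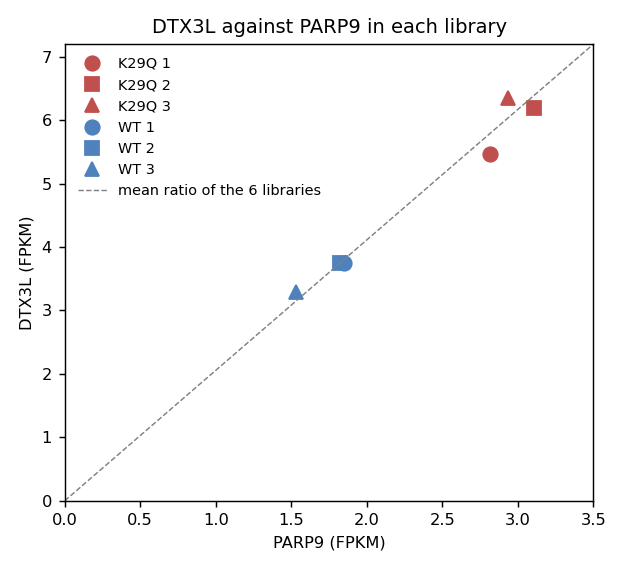
FPKM of DTX3L (vertical) against PARP9 (horizontal) in each of the 6 libraries, with a dashed line at the mean DTX3L to PARP9 ratio. The K29Q libraries lie farther along the line than the WT libraries, at ratios of 1.94 to 2.17 in K29Q and 2.02 to 2.16 in WT.

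PARP14, the largest of the macrodomain transferases and a known cofactor of STAT6, is encoded on the same arm of chromosome 3 (ENSG00000173193, from 122680618 to 122730840, plus strand). It had 3.67, 3.66 and 3.67 FPKM in K29Q 1 to 3, against 2.90, 2.22 and 2.02 FPKM in WT 1 to 3. WT 1 was the highest of its group and still 0.755 FPKM below the lowest K29Q library. The means were 3.67 ± 0.00741 FPKM in K29Q and 2.38 ± 0.462 in WT (SD, n = 3 each). The ratio of the means was 1.54 and the log2 difference was 0.47 (SE 0.10). With 1 library left out it lay between 0.40, without WT 3, and 0.58, without WT 1.

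The K29Q values of PARP14 lay closer together than their counting error. They varied by 0.202% (coefficient of variation), while about 1040 fragments in K29Q 3 alone give a counting SD of 3.10%. The SE of the fit, which borrows spread from other genes, does not rest on these 3 values alone.

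PARP12, a transferase with zinc fingers that bind RNA, showed a smaller difference (ENSG00000059378, chromosome 7 from 140023744 to 140063721, minus strand). It had 2.40, 2.65 and 2.80 FPKM in K29Q 1 to 3, against 2.12, 2.16 and 1.95 FPKM in WT 1 to 3. The groups were separated by 0.237 FPKM, less than the 0.402 FPKM between the lowest and highest K29Q library. The means were 2.62 ± 0.203 FPKM in K29Q and 2.08 ± 0.112 in WT (SD, n = 3 each). The ratio of the means was 1.26 and the log2 difference was 0.23 (SE 0.073). On flow cell A alone the difference was 0.16 and on flow cell B alone 0.33.

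PARP10, a mono-ADP-ribosyltransferase first found as a MYC partner, was low in all libraries (ENSG00000178685, chromosome 8, minus strand). It had 0.622, 0.610 and 0.548 FPKM in K29Q 1 to 3, against 0.406, 0.321 and 0.402 FPKM in WT 1 to 3. The means were 0.593 ± 0.0394 FPKM in K29Q and 0.377 ± 0.0479 in WT (SD, n = 3 each). The ratio of the means was 1.58. The log2 difference was 0.21 (SE 0.069) with a pseudocount of 1 and 0.54 with 0.1.

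PARP10 overlaps GRINA, a gene on the opposite strand, by 3358 bases. GRINA had 32.4 ± 3.47 FPKM in K29Q and 31.3 ± 1.23 in WT (SD, n = 3 each), far above PARP10 in each library, so the level of PARP10 is uncertain if strand was not used. GRINA itself overlapped between the groups, with a log2 difference of 0.04 (SE 0.085). SPATC1, also on the opposite strand, shares 359 bases with PARP10. It had 0.747 ± 0.151 FPKM in K29Q and 0.747 ± 0.230 in WT (SD, n = 3 each), with overlap between the groups. The difference of PARP10 was 0.29 on flow cell A and 0.14 on flow cell B.

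SAMD9 showed the largest difference of the 7 on the log2(FPKM + 1) scale (ENSG00000205413, chromosome 7 from 93099513 to 93118023, minus strand). It had 3.01, 2.41 and 3.13 FPKM in K29Q 1 to 3, against 1.57, 1.02 and 1.07 FPKM in WT 1 to 3. WT 1 again was the highest of its group, at 0.844 FPKM below the lowest K29Q library. The means were 2.85 ± 0.387 FPKM in K29Q and 1.22 ± 0.302 in WT (SD, n = 3 each). The ratio of the means was 2.34 and the log2 difference was 0.80 (SE 0.12). With 1 library left out it lay between 0.73, without WT 2, and 0.91, without WT 1.

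SAMD9L, the paralog 12032 bases away on the same strand (ENSG00000177409, chromosome 7 from 93130055 to 93148369), was barely detected. It had 0.0453, 0.0526 and 0.0583 FPKM in K29Q 1 to 3, against 0.0116 and 0.0112 FPKM in WT 1 and 2, and was listed at 0 in WT 3. At the estimated depth this is about 11.5, 15.01 and 13.98 fragments in K29Q 1 to 3 and about 3.00, 3.00 and 0 in WT 1 to 3. No ratio is given at this depth. The log2 difference was 0.06 (SE 0.012) with a pseudocount of 1 and 0.50 with 0.1. SAMD9 was far above SAMD9L in every library.

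Among the 13261 tested genes, ordered from the largest positive log2 difference, SAMD9 ranked 27, DTX3L 77, PARP9 115, PARP14 161 and PARP12 1264. The median log2 difference over all 7 genes, including those below the filter, was 0.47, against 0.00 over all tested genes. In mean FPKM, DTX3L exceeded 47.3% of the tested genes, PARP14 32.4%, PARP12 24.8%, PARP9 24.8% and SAMD9 20.8%. In K29Q the order from high to low was DTX3L, PARP14, PARP9, SAMD9, PARP12, PARP10 and SAMD9L, where the values of SAMD9 overlapped those of PARP9 and of PARP12. In WT it was DTX3L, PARP14, PARP12, PARP9, SAMD9, PARP10 and SAMD9L, with overlap of PARP14 with PARP12 and of PARP9 with SAMD9. The FPKM of SAMD9 over that of PARP9 averaged 0.971 ± 0.169 in K29Q and 0.702 ± 0.144 in WT (SD, n = 3 each), with overlap.

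The order of PARP12 and PARP9 differed between the groups. The FPKM of PARP12 over that of PARP9 was 0.852, 0.852 and 0.956 in K29Q 1 to 3, against 1.146, 1.19 and 1.27 in WT 1 to 3. PARP12 was thus the lower of the pair in every K29Q library and the higher in every WT library. PARP14 over PARP9 was 1.24 ± 0.0641 in K29Q and 1.37 ± 0.181 in WT (SD, n = 3 each), and overlapped.

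The WT libraries were not alike for these genes. WT 1 was the highest of its group for 5 of the 7 genes and WT 3 the lowest for 5. Relative to the WT mean, the log2 value of SAMD9 was 0.22 in WT 1, −0.13 in WT 2 and −0.09 in WT 3, and that of PARP14 was 0.22, −0.06 and −0.15. The K29Q libraries lay at 0.63 to 0.91 for SAMD9 and 0.47 for PARP14 in each.

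GC content differed among the 7 genes, as did the differences of other genes of like GC. The longest transcript of SAMD9 had 36.0% GC, that of PARP14 42.4%, PARP9 43.4%, DTX3L 44.2%, PARP12 54.5% and PARP10 66.9%, against a median of 49.7% over tested genes. The tested genes within 1% GC of SAMD9 had a median log2 difference of 0.17, those around PARP9 0.03 and those around PARP12 −0.04. After each library was corrected for GC content and length, the log2 difference was 0.61 for SAMD9, 0.54 for DTX3L, 0.45 for PARP9, 0.36 for PARP14 and 0.27 for PARP12.

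**Figure D3:**
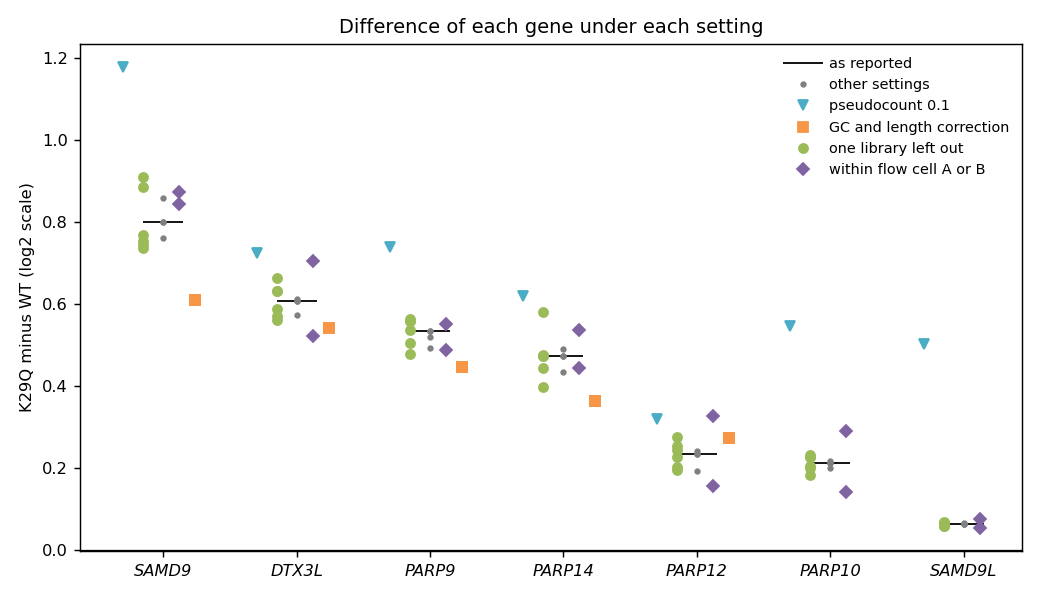
Log2 difference, K29Q minus WT, of each gene as reported (line) and under each other setting (symbols), on a scale of log2(FPKM + pseudocount). Every symbol lies above 0. The separation of the groups fixes this where a library is left out, 1 flow cell is used, a flow cell term is added or the pseudocount is changed. The pseudocount of 0.1 gives the highest value for each gene except PARP12, up to 1.18 for SAMD9, and PARP10 and SAMD9L have no GC and length correction.

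The neighbourhood on chromosome 3 was examined because PARP9, DTX3L and PARP14 all lie there. Within 200 kb of these genes the annotation held 9 other protein-coding genes, 7 of them tested. Of these 0 passed the threshold, where 0.0528% of all tested genes did. KPNA1, an importin next to PARP9, had 8.37 ± 0.405 FPKM in K29Q and 7.76 ± 0.385 in WT (SD, n = 3 each), with overlap. PARP15, a paralog that lies between DTX3L and PARP14, was at most 0.0104 FPKM. HSPBAP1, next to PARP14, had 1.08 ± 0.0672 FPKM in K29Q and 1.01 ± 0.0733 in WT, with overlap.

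Of the 7 tested neighbours 6 overlapped between the groups. Over all tested genes, 8.8% were higher and 9.0% lower in K29Q without overlap, so nothing is read from this count. FAM162A, a HIF1 target, lay without overlap. It had 15.2, 16.7 and 15.7 FPKM in K29Q 1 to 3, against 11.6, 11.4 and 10.9 FPKM in WT 1 to 3 (log2 difference 0.46, SE 0.063, limma, adjusted p = 0.0837). CSTA, a cysteine protease inhibitor, had the lowest difference of these neighbours, with 1.62 ± 0.255 FPKM in K29Q and 2.24 ± 0.469 in WT (SD, n = 3 each; −0.30, SE 0.12, adjusted p = 0.396), with overlap.

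**Figure D4:**
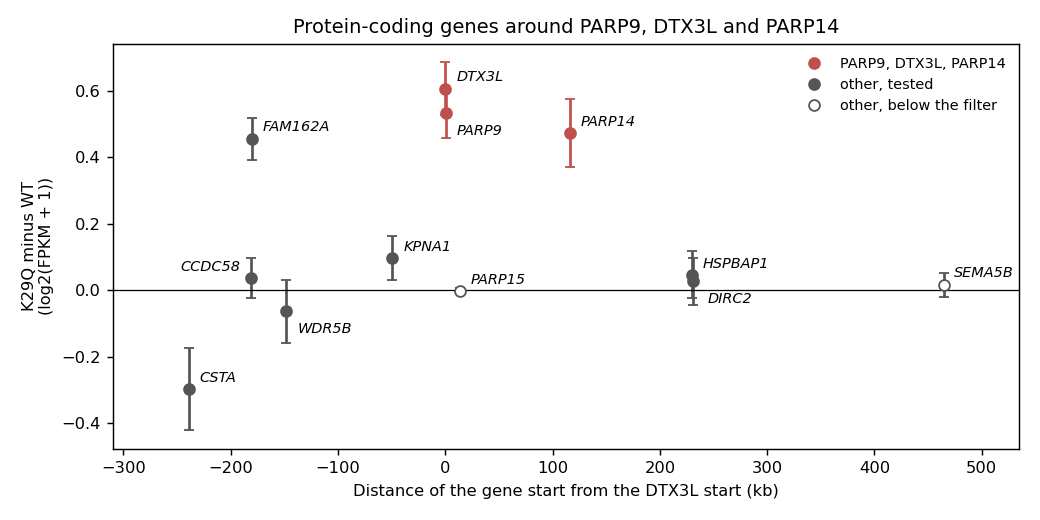
Log2 difference, K29Q minus WT (vertical, bars are SE of the fit), of protein-coding genes around PARP9, DTX3L and PARP14, against the distance of each start from the DTX3L start in kb. PARP9, DTX3L and PARP14 lie at 0.53, 0.61 and 0.47 and FAM162A at 0.46, while KPNA1, HSPBAP1, CCDC58 and DIRC2 lie at 0.10, 0.05, 0.04 and 0.03, WDR5B at −0.06 and CSTA at −0.30.

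On chromosome 7 the nearest tested gene to the SAMD9 pair was VPS50, a tethering factor in endosome recycling. VPS50 had 1.33 ± 0.243 FPKM in K29Q and 0.962 ± 0.171 in WT (SD, n = 3 each), without overlap (log2 difference 0.25, SE 0.10, limma, adjusted p = 0.401). HEPACAM2, which lies between SAMD9L and VPS50, was near 0, at 0.00777 ± 0.00674 FPKM in K29Q and 0.00712 ± 0.0123 in WT. Beside PARP12, the demethylase gene KDM7A had 1.63 ± 0.0832 FPKM in K29Q and 1.32 ± 0.402 in WT, with overlap. TBXAS1, on the other side, was below the filter, at 0.205 ± 0.00108 FPKM in K29Q and 0.154 ± 0.0247 in WT, without overlap.

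Around PARP10, 17 protein-coding genes lay within 200 kb, of which 15 were tested. Of these 5 were above 0 and 10 below, and 0 passed (limma), where 0.0528% of all tested genes did. Tested genes anywhere within 1% GC of PARP10 had a median log2 difference of −0.04. Any part of GC content in these directions was not tested. PLEC, the cytoskeletal linker 419 bases from PARP10, had 107 ± 9.03 FPKM in K29Q and 131.5 ± 14.6 in WT (SD, n = 3 each), without overlap. OPLAH, on the other side, had 5.80 ± 0.699 FPKM in K29Q and 6.31 ± 0.949 in WT, with overlap.

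Of the 13 other members of the ADP-ribosyltransferase family 10 were tested, and 0 passed the threshold. At an unadjusted p under 0.05 (limma) stood 3, all higher in K29Q, where 12.5% of all tested genes stood and 7.65% as higher in K29Q. Their median log2 difference was 0.12. ZC3HAV1, the zinc finger antiviral protein that binds CpG-rich RNA, had 9.75 ± 0.0412 FPKM in K29Q and 7.94 ± 0.590 in WT (SD, n = 3 each), with no overlap (log2 difference 0.27, SE 0.068, adjusted p = 0.289). PARP6 had 3.11 ± 0.0389 FPKM in K29Q and 2.64 ± 0.110 in WT, with no overlap (0.17, SE 0.061, adjusted p = 0.378).

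TNKS2, a tankyrase, had 6.89 ± 0.303 FPKM in K29Q and 5.51 ± 1.03 in WT (log2 difference 0.29, SE 0.11, limma, adjusted p = 0.389), with overlap. TNKS had 5.75 ± 0.218 FPKM in K29Q and 5.03 ± 0.560 in WT (0.17, SE 0.082, adjusted p = 0.444), also with overlap. The DNA repair enzyme PARP1, the best-known member, had 39.9 FPKM in K29Q and 42.3 in WT on average (−0.08). None of the 11 other transferase genes with a promoter window held the GAAA pair.

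**Figure D5:**
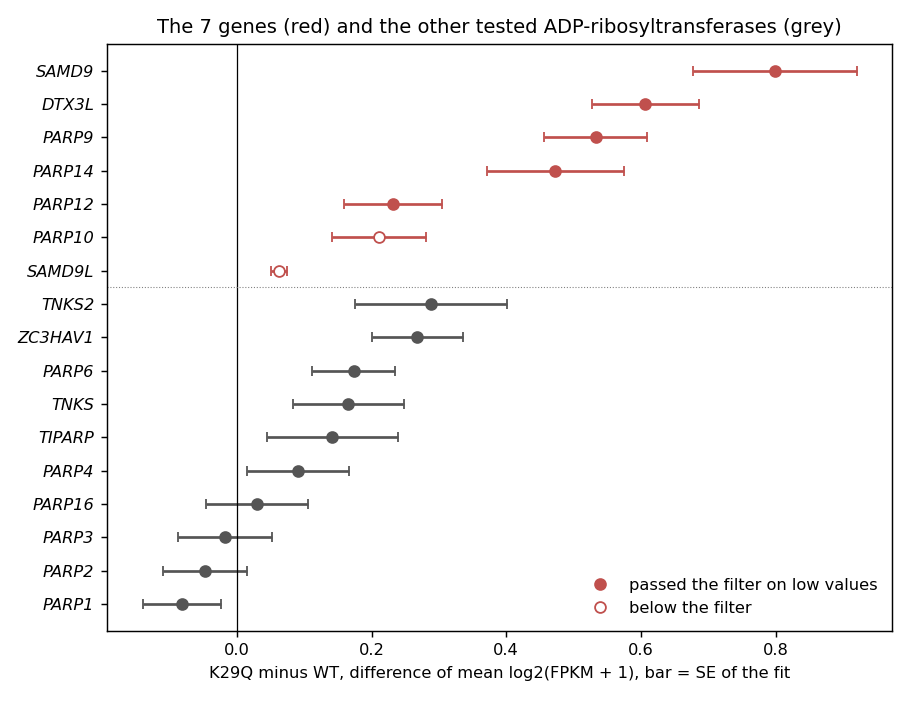
Log2 difference, K29Q minus WT, of the 7 genes (red, open where below the filter on low values) and of the 10 other tested ADP-ribosyltransferases (grey), with bars of 1 SE of the fit. SAMD9, DTX3L, PARP9 and PARP14 lie at 0.47 to 0.80. PARP12 (0.23), PARP10 (0.21) and SAMD9L (0.06) lie within the range of the other transferases, −0.08 to 0.29, on this scale with a pseudocount of 1. It shrinks the differences of PARP10 and SAMD9L, which lie under 1 FPKM. With a pseudocount of 0.1 these were 0.54 for PARP10 and 0.50 for SAMD9L, against 0.32 for PARP12 and 0.33 for TNKS2.

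Proteins that remove or read ADP-ribose, 10 in all with 8 tested, had 0 past the threshold (limma, 1 at an unadjusted p under 0.05) and a median of 0.09. Of all tested genes 12.5% stood at an unadjusted p under 0.05 (limma). OARD1, a hydrolase that frees ADP-ribose from glutamate, had 2.31 ± 0.109 FPKM in K29Q and 1.82 ± 0.135 in WT (SD, n = 3 each), with no overlap (log2 difference 0.23, SE 0.070, adjusted p = 0.351). MACROD1 had 19.2 ± 1.87 FPKM in K29Q and 21.6 ± 1.58 in WT (−0.16, SE 0.089, adjusted p = 0.478). The macrodomain histone H2AFY had 9.51 ± 0.161 FPKM in K29Q and 10.3 ± 0.468 in WT (−0.11, SE 0.060, adjusted p = 0.4997), without overlap.

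CHD1L, a remodeller with a macrodomain, had 13.6 ± 0.687 FPKM in K29Q and 12.6 ± 0.369 in WT (log2 difference 0.10, SE 0.063, limma, adjusted p = 0.523). Of the other 4 Deltex ligases, relatives of DTX3L, DTX2 and DTX4 were tested and 0 passed (limma, 0 at an unadjusted p under 0.05). DTX4 had 3.48 ± 0.128 FPKM in K29Q and 2.66 ± 1.29 in WT, and DTX2 had 3.74 ± 0.445 in K29Q and 3.38 ± 0.219 in WT, both with overlap.

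Upstream of these genes in the interferon pathway, 15 receptors, kinases and transcription factors were tested. Of these 0 passed the threshold (limma, 3 at an unadjusted p under 0.05, all higher in K29Q), and the median log2 difference was 0.12. IRF7 and IRF9, transcription factors that carry the signal to promoters, were among the 3. Of all tested genes 7.65% stood at an unadjusted p under 0.05 (limma) as higher in K29Q.

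IRF7 had 10.1 ± 1.18 FPKM in K29Q and 6.23 ± 1.06 in WT (log2 difference 0.63, SE 0.13, limma, adjusted p = 0.185). IRF9 had 3.16 ± 0.518 FPKM in K29Q and 1.98 ± 0.323 in WT (0.48, SE 0.12, adjusted p = 0.287). IRF7 passed after GC and length correction alone (adjusted p = 0.0217), where 0.465% of genes passed as higher in K29Q. It did not pass with the replicate block added to that correction (0.135), nor in any other setting tried, where its limma adjusted p lay between 0.0991 and 0.46. The receptor subunit IFNGR1 had 8.96 ± 0.964 FPKM in K29Q and 7.57 ± 1.01 in WT, with overlap (adjusted p = 0.448).

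Of 10 interferon genes, IFNE alone passed the filter. It reached 1 FPKM in every K29Q library, but in WT 1 alone of the WT libraries. IFNE, an epithelial type I interferon, had 1.74 ± 0.401 FPKM in K29Q and 0.992 ± 0.225 in WT (SD, n = 3 each), with no overlap (log2 difference 0.46, SE 0.13, limma, adjusted p = 0.345). The other 9, IFNB1 and the lambda interferons IFNL1, IFNL2 and IFNL3 among them, averaged at most 0.186 FPKM in K29Q and at most 0.0829 in WT.

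Among 49 other interferon-induced genes 35 were tested, and 2 rose past the threshold, IFI6 and OAS3 (limma, 0 fell, 23 at an unadjusted p under 0.05, all higher in K29Q). The log2 difference was positive for 32 of the 35 and negative for 3, and its median was 0.33. All 3 K29Q libraries exceeded all 3 WT libraries for 24 of them, and for 8.8% of all tested genes. As higher in K29Q, 0.0302% of all tested genes passed the threshold and 7.65% stood at an unadjusted p under 0.05 (limma). The list was put together with earlier results of these libraries known.

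OAS1, a sensor of double-stranded RNA, had 1.25 ± 0.0587 FPKM in K29Q and 0.397 ± 0.0598 in WT (SD, n = 3 each; adjusted p = 0.0502 by limma). It lay under 1 FPKM in every WT library and passed the filter through its K29Q libraries alone. It is counted among the tested genes of the list, but nothing is read from its p. The RNA helicase IFIH1 had 3.31 ± 0.140 FPKM in K29Q and 1.51 ± 0.245 in WT (adjusted p = 0.0571). IFI6 had 98.9 ± 13.3 FPKM in K29Q and 34.1 ± 0.663 in WT (adjusted p = 0.00352), and OAS3 had 16.9 ± 0.462 FPKM in K29Q and 10.3 ± 0.653 in WT (adjusted p = 0.0357). OAS3 no longer passed in any of the 6 fits that omit a library, where its limma adjusted p lay between 0.054 and 0.14. Of the 40 interferon-induced genes of the list with a promoter window, 29 (72.5%) held the GAAA pair.

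The genes whose profile over the 6 libraries was closest to the mean centred profile of the 7 were CCNG2, TMOD3, L3MBTL3, HIST1H2BD and LARP4, from 13256 tested genes outside the 7. Their root mean square differences from it were 0.0378, 0.0405, 0.0424, 0.0451 and 0.0454 on the log2 scale. CCNG2, an atypical cyclin, had 5.16, 5.76 and 5.85 FPKM in K29Q 1 to 3, against 4.31, 3.97 and 3.73 FPKM in WT 1 to 3. TMOD3, which caps actin filaments, had 16.4 ± 0.738 FPKM in K29Q and 11.8 ± 1.05 in WT (SD, n = 3 each). The measure covers 6 libraries in 2 groups, so genes with a K29Q minus WT difference near that of the 7 score as alike.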

How the data were processed

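The authors deposited a single table with an FPKM for every gene in every library, as its column names state (per the file headers). The submitters' processing notes name HISAT2 2.1.0, StringTie and the build GRCh38, with no StringTie version; the annotation and any strand option are not stated in what was read here. Columns of samples outside the series numbered 0, and 57055 of 60675 IDs matched GENCODE 29. Values of genes that reached 1 FPKM in 3 or more libraries were taken as log2(FPKM + 1) and fitted by group with limma 3.58.1 (intensity trend, R 4.3.3), with Benjamini-Hochberg adjustment over 13261 genes, after a test on simulated data. Positions, GC content and length of the longest transcript came from GENCODE 29. The members and lists were chosen with earlier results of these data known. Named genes were the 7 members, up to 4 genes of each of 6 lists with the smallest p, and the 5 most alike profiles. The nearest protein-coding genes on each side of a member within 200 kb were also named. PARP1, FAM162A, CSTA, CCDC58, WDR5B, DIRC2, VPS50, SPATC1, IFNB1 and the IFNL genes were chosen after their values were seen. A gene that the rule takes is not reported here. Depth was estimated from genes with 1 transcript of 1 exon longer than 600 nt, and whole counts were not recovered. Fragment numbers cover counting error only. Alternatives were quantile normalization, a pseudocount of 0.1, no filter, a filter at a mean of 5 FPKM, the replicate block, a flow cell term, GC and length correction, and each library left out.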

Additional observations from a re-analysis of the deposited data

How the results depend on the processing

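All 101 log2 differences of the 7 genes under the alternatives were above 0, and 18 of them moved by more than the SD between libraries. Their sign is no check where a library is left out, 1 flow cell is used, a flow cell term is added or the pseudocount is changed. There it was fixed, since every K29Q library lay above every WT library for these genes. The differences with no filter and with the replicate block repeat the reported ones. With a mean FPKM of at least 5 no gene of the 7 was left. GC and length correction is not given for PARP10 and SAMD9L, since its trend was fitted on genes above the filter and would put SAMD9L below an FPKM of 0. The median over the 7 was 0.62 with a pseudocount of 0.1, and between 0.40 and 0.56 with 1 library left out, the lowest without WT 3 and the highest without WT 1. The number of genes past the threshold, 7 (4 higher, 3 lower), was 2 with no filter on low values, 13 with quantile normalization (9 higher, 4 lower), 4 with a flow cell term, 83 after GC and length correction (61 higher, 22 lower) and 5 to 20 with 1 library left out, at 20 without WT 1 and 12 without K29Q 1. Of the interferon-induced genes, 2 in the fit as reported, 0 passed with no filter, 6 with quantile normalization, 1 with a flow cell term, 8 after GC and length correction, and 1 to 4 with 1 library left out, at 4 without WT 1 and 1 without any other single library. Of the receptors, kinases and transcription factors, 2 passed after GC and length correction. Of the members, 3 (PARP9, DTX3L and SAMD9) passed after that correction, where 0.465% of genes passed as higher in K29Q. No member passed in any other setting, including that correction with the replicate block. Nothing is read from this, since the members were chosen on the same contrast. The 19 genes that the rule takes from the lists kept their direction in all 258 values. These genes were taken by the smallest p in the same data. Where their groups did not overlap, the sign was fixed in the same way. Their differences with no filter and with the replicate block also repeat the reported ones, so nothing is read from this count. IFI6 lost the call with no filter (limma, adjusted p = 0.0578) and with the replicate block and GC and length correction together (0.0639). The cause of these changes was not tested.

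The replicate number was also fitted as a replicate block. Libraries that share a number share only that: their deviations from the group means correlated at −0.14, 0.179 and −0.165 across genes for numbers 1 to 3. With the block 3 genes passed, 1 of them interferon-induced, and with the block and the GC and length correction 1 gene passed, with 0 interferon-induced.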

Other observations

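The promoter motif was also followed beyond the 7 genes. Of the tested genes with a promoter window, 327 held the GAAA pair (GAAA, any 2 bases, GAAA) and 9119 did not. All 3 K29Q libraries exceeded all 3 WT libraries for 19.3% of the genes with it and 8.88% of those without, and the reverse held for 7.34% and 9.497%. The median log2 difference was 0.05 with it and 0.00 without, or 0.03 and −0.01 after GC and length correction. The 327 genes include PARP9, DTX3L, PARP12, PARP14, SAMD9 and many of the interferon-induced list, and the difference between the classes was not tested.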
